A study of Mus musculus with 7 samples.

Results

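The 3p arms of 8 mouse let-7 hairpins were followed over 7 miRNA arrays of CD4+ T cells. They are the rows and spots named let-7a-1-3p, let-7a-2-3p, let-7b-3p, let-7c-1-3p, let-7d-3p, let-7e-3p, let-7f-1-3p and let-7f-2-3p, 8 of the 1881 miRNA names on the array. In the files the names carry the mouse prefix, as in mmu-let-7b-3p, mmu-let-7d-3p and mmu-let-7f-1-3p, which is left out below. They were chosen by their measured log2 difference between the groups: several of them differed in the direction opposite to their 5p arms. The differences between the groups, and between the arms, therefore chose the set and are given below as a description, without a p-value. The 6 matching 5p arms (let-7a-5p, let-7b-5p, let-7c-5p, let-7d-5p, let-7e-5p and let-7f-5p) enter only for comparison within a hairpin.

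CD4+ T cells were taken from draining lymph nodes of EAM mice, a model of myocarditis (4 arrays, labelled day 6 after induction), and of LAD mice, a model of myocardial infarction (3 arrays, labelled day 3). The series' design text gives the days in the other order, and neither strain nor age is stated in the labels. The cells were bound by a biotin-coupled antibody to CD4 and kept on streptavidin beads. No cells of healthy mice are among the samples, so each difference is EAM relative to LAD, and model, day and slide column change together and cannot be told apart. The labels do not say whether a sample is 1 mouse or a pool, so the spread between arrays may be partly technical. The RNA is of bulk cells, in which fewer cells of a type and less RNA per cell cannot be told apart.

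A let-7 precursor is a stem-loop that is cut into a duplex of 2 short RNAs. The strand from the 5′ side is the guide that is normally loaded into the Argonaute silencing complex, where its seed pairs with target mRNAs; in lymphocytes let-7 guides are among the abundant miRNAs. The strand from the 3′ side is the passenger, most of which is degraded after the duplex opens. A passenger strand that is kept carries another seed and could pair with other targets.

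The sequences show how the passenger strands relate to one another and to their guides. Mature sequences are those of RefSeq on GRCm38.p6, and capitals mark the seed, bases 2 to 8; all 8 members were matched there. Of these, let-7a-1-3p, let-7b-3p and let-7f-1-3p share the seed UAUACAA, while the other 5 have a seed each.
let-7a-1-3p: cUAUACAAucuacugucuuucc
let-7b-3p: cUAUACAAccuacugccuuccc
let-7f-1-3p: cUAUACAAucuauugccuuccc
let-7f-2-3p: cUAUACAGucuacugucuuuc
let-7d-3p: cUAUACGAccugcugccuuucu
let-7e-3p: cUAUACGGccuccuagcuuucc
let-7c-1-3p: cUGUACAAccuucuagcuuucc
let-7a-2-3p: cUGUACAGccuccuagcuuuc
For comparison, the 5p arms of the hairpins that carry the results below all have the seed GAGGUAG.
let-7b-5p: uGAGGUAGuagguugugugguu
let-7f-5p: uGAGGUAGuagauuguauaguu
let-7d-5p: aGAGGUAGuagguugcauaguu

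Compared position by position from the 5′ end, the 28 pairs of 3p arms had between 13 and 20 identical bases. let-7a-1-3p has the same mature sequence as let-7c-2-3p, the passenger of another hairpin, so signal on its probes cannot be assigned to either. The hairpins of let-7a-1, let-7f-1 and let-7d lie together within 2261 bases of chromosome 13 (48536012 to 48538272 on GRCm38.p6), and let-7b lies on chromosome 15. The 2 precursors below carry the 3p arms with the largest log2 differences after quantile normalization, and capitals mark the 3p arm.
let-7b hairpin: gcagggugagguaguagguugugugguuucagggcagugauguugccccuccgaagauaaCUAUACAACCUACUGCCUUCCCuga
let-7f-1 hairpin: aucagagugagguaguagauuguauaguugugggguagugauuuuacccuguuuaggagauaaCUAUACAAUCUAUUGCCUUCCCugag

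The LAD arrays were dimmer than the EAM arrays. Over 418 probes above background on all 7 arrays, the 75th percentile of background-subtracted signal was 451 to 606 intensity units in EAM and 88.9 to 273 in LAD, with the LAD arrays at 115, 273 and 88.9. Feature Extraction marked 445 to 471 miRNAs as detected on EAM arrays and 311 to 380 on LAD arrays. The negative controls were alike (medians of 45.6 to 50.9 units in EAM and 47.3 to 49.6 in LAD), as nearly were the labelling and hybridization spike-ins (log2 of 12.86 ± 0.19 in EAM, n = 4, and 13.08 ± 0.01 in LAD, n = 3, SD). No spot was saturated. All 5 lymphocyte miRNAs of the marker list were detected on every array, with summed signals of 41197 to 57069 units in EAM and 2358 to 11052 in LAD, and none of the stroma, heart or liver miRNAs on any. Of the epithelial list, miR-200a-3p and miR-203-3p were detected on all 4 EAM arrays and 0 LAD arrays. miR-200b-3p, miR-200c-3p and miR-141-3p were detected on all 4 EAM arrays and 1 LAD array, and miR-205-5p on no array. The summed signal of this list was 56.7 to 89.0 units in EAM and 0 to 10.3 in LAD. The myeloid miR-223-3p was below LAD on every EAM array after quantile normalization (6.43 to 6.73 in EAM and 7.71 to 9.19 in LAD), a log2 difference of -1.64; miR-223-5p was detected on no array. The summed myeloid signal was 58.2 to 67.3 units in EAM and 24.7 to 75.1 in LAD, that of the red cell list 49.96 to 93.9 in EAM and 9.68 to 32.1 in LAD, and that of the endothelial list 0 to 11.2 in EAM and 0 to 12.9 in LAD. The part of these cells in the results was not tested.

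Passenger strands were near the lower limit of the array. let-7b-3p, let-7f-1-3p and let-7d-3p were detected on all 7 arrays, let-7a-1-3p on the 4 EAM arrays and LAD array 2, and let-7f-2-3p on EAM array 1 alone. let-7a-2-3p, let-7c-1-3p and let-7e-3p were detected on none. EAM arrays detected 5, 4, 4 and 4 of the 8, and LAD arrays 3, 4 and 3. Thus 4 of the 8 (let-7a-1-3p, let-7b-3p, let-7d-3p and let-7f-1-3p) were among the 423 miRNAs tested, which had to be detected on all arrays of EAM, of LAD or of both. That filter passes an arm through 1 group alone, as it did let-7a-1-3p.

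The main values are log2 signals after background correction (normexp) and quantile normalization, which gives every array the same distribution of signals. On this scale let-7b-3p, the passenger of the let-7b hairpin, stood at 5.17, 5.36, 5.31 and 5.31 in EAM, against 6.53, 5.75 and 6.52 in LAD. Every EAM array was below every LAD array, and LAD array 2, the brightest of its group, was the LAD array nearest to EAM. The means were 5.28 ± 0.08 in EAM (SD, n = 4) and 6.27 ± 0.45 in LAD (SD, n = 3), a log2 difference of -0.98.

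let-7f-1-3p, the passenger of the first of 2 hairpins that give let-7f-5p, followed the same order. Its values were 5.11, 5.18, 5.18 and 5.14 in EAM, against 6.11, 5.65 and 6.27 in LAD. The groups did not overlap, and LAD array 2 was again the lowest of its group. The log2 difference was -0.85, with means of 5.16 ± 0.03 in EAM and 6.01 ± 0.32 in LAD (SD, n = 4 and 3).

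let-7d-3p, from the hairpin next to let-7f-1, had values of 4.66, 4.84, 4.63 and 4.72 in EAM, against 5.25, 4.85 and 5.13 in LAD. The groups did not overlap, but EAM array 2 and LAD array 2 nearly met. The log2 difference was -0.36 (4.71 ± 0.09 in EAM and 5.08 ± 0.21 in LAD, SD). let-7a-1-3p stood at 4.54, 4.44, 4.43 and 4.38 in EAM, against 4.73, 4.66 and 4.58 in LAD, a difference of -0.21 without overlap. The other 4 passengers, detected on 1 array or none, differed by -0.12 (let-7a-2-3p), -0.11 (let-7c-1-3p), -0.08 (let-7f-2-3p) and -0.07 (let-7e-3p). The last 2 overlapped between the groups.

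**Figure D1:**
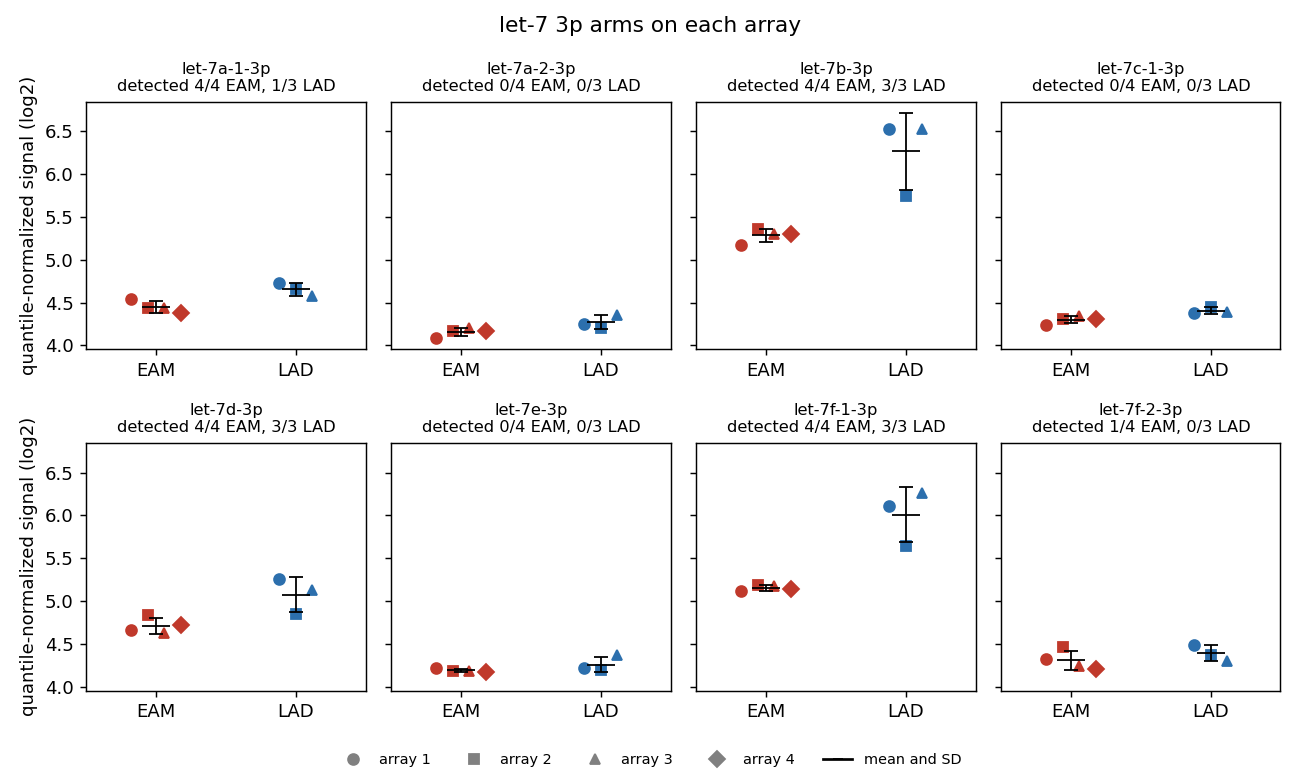
Quantile-normalized log2 signal (y axis) of each let-7 3p arm on the 4 EAM and 3 LAD arrays, with the group mean and SD in black. let-7b-3p and let-7f-1-3p stand lower in EAM on every array, let-7d-3p less so, and the arms that were rarely detected lie near the bottom of the scale in both groups.

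Over all 8 passengers, 6 had every EAM array below every LAD array and none the reverse. Over all miRNAs of the array, the background for such a separation was 20.4% lower in EAM and 17.5% higher. All 4 tested passengers were separated in this way, beside 22.2% lower and 34% higher of the miRNAs tested. In the limma fit, 2 passengers, let-7b-3p and let-7f-1-3p, were called lower in EAM at an adjusted p under 0.05 and 0 were called higher. Of the miRNAs tested, 59.8% were called, 23.6% lower in EAM and 36.2% higher; since the contrast chose the set, nothing is read from these counts. The split over all miRNAs tested, 153 higher and 100 lower, was 299 and 2 without scaling and 38 and 230 with scaling to the 75th percentile of the probes detected on all arrays. The median log2 difference was -0.16 over the 8 passengers and -0.61 over the 4 tested, beside -0.04 over all miRNAs of the array and 0.31 over all tested.

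The guide strands differed the other way after quantile normalization. let-7b-5p had log2 values of 11.02, 10.99, 11.03 and 11.001 in EAM, against 10.71, 10.68 and 10.30 in LAD, a difference of 0.45. let-7f-5p had 12.72, 12.79, 12.78 and 12.84 in EAM, against 12.62, 12.56 and 12.56 in LAD, a difference of 0.20. Both were higher on every EAM array, as was let-7c-5p (difference 0.48). let-7a-5p (0.19), let-7d-5p (0.19) and let-7e-5p (0.48) overlapped between the groups. The fit called 2 of the 6 higher in EAM (let-7b-5p and let-7c-5p) and 0 lower, beside 36.2% and 23.6% of the miRNAs tested. The guides entered the choice of the set, so nothing is read from this count either.

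The same spots without scaling between arrays gave another picture of the passengers. Before any scaling, let-7b-3p had a background-subtracted signal of 26.7, 27.2, 21.8 and 22.3 intensity units in EAM, against 32.0, 26.7 and 27.5 in LAD. The groups overlapped, and the ratio of the means was 0.85 (24.5 ± 2.9 in EAM and 28.7 ± 2.9 in LAD, SD). let-7f-1-3p had 25.02, 21.9, 18.1 and 18.5 units in EAM, against 24.02, 23.4 and 23.1 in LAD. These overlapped as well, with a ratio of 0.89, and for let-7d-3p the ratio was 0.97. let-7b-3p and let-7f-1-3p thus kept nearly the same signal on arrays whose overall brightness differed several-fold. let-7d-3p varied more, between 6.39 and 12.9 units within EAM alone.

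The guides of the same hairpins followed the brightness of the arrays. let-7b-5p had 2989, 3190, 2652 and 3510 units in EAM, against 372, 1199 and 180.02 in LAD, a ratio of 5.29. let-7f-5p had 10802, 12301, 10389 and 15065 units in EAM, against 1542, 4270 and 726 in LAD, a ratio of 5.57. let-7d-5p, at a ratio of 4.39, had the same order of arrays within LAD. Ratios of the 6 guides ran between 3.44 (let-7e-5p) and 5.57, and none overlapped between the groups. Of the 251 miRNAs detected on all 7 arrays, the median ratio was 2.43 and 66 had a ratio below 1; counted upward from the lowest ratio, let-7b-3p stood at rank 21, let-7f-1-3p at 27 and let-7d-3p at 60.

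**Figure D2:**
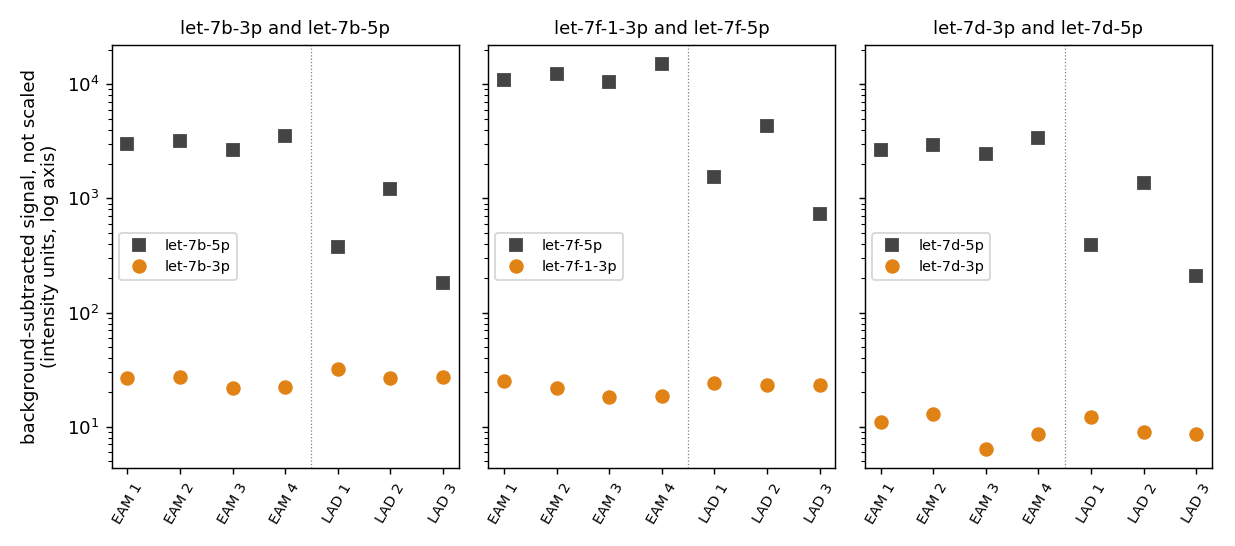
Background-subtracted signal without scaling (y axis, intensity units, log axis) of 3 passenger strands and their guides on each array. The guides are several times brighter on the EAM arrays and vary within LAD, whereas let-7b-3p stays between 21.8 and 32.0 units on all 7 arrays.

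On the log2 scale without scaling (normexp alone), let-7b-3p differed by 0.049, let-7f-1-3p by 0.087, let-7d-3p by 0.26 and let-7a-1-3p by 0.31, and each overlapped between the groups. No passenger was lower in EAM without overlap in these values. That was so for nearly all miRNAs: of the 1881 on the array, 2 were lower without overlap and 1056 higher. Of the 423 tested, 2 were lower and 290 higher. The sign of the small unscaled differences depended on the measure, since the ratios of background-subtracted signal above were below 1. The 2 measures differ in background step, in how probes are combined and in how arrays are averaged. In the 8 scaled value sets, the authors' table among them, the difference of let-7b-3p lay between -1.72 and -0.43, that of let-7f-1-3p between -1.69 and -0.39, and that of let-7d-3p between -1.51 and -0.14. The most negative values of all 3 came from scaling to the 75th percentile of the probes detected on all arrays. That scaling also gave -1.40 for let-7a-2-3p and -1.35 for let-7e-3p, which were detected on no array. The share of the let-7b-3p and let-7f-1-3p differences that array brightness accounts for was not tested.

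**Figure D3:**
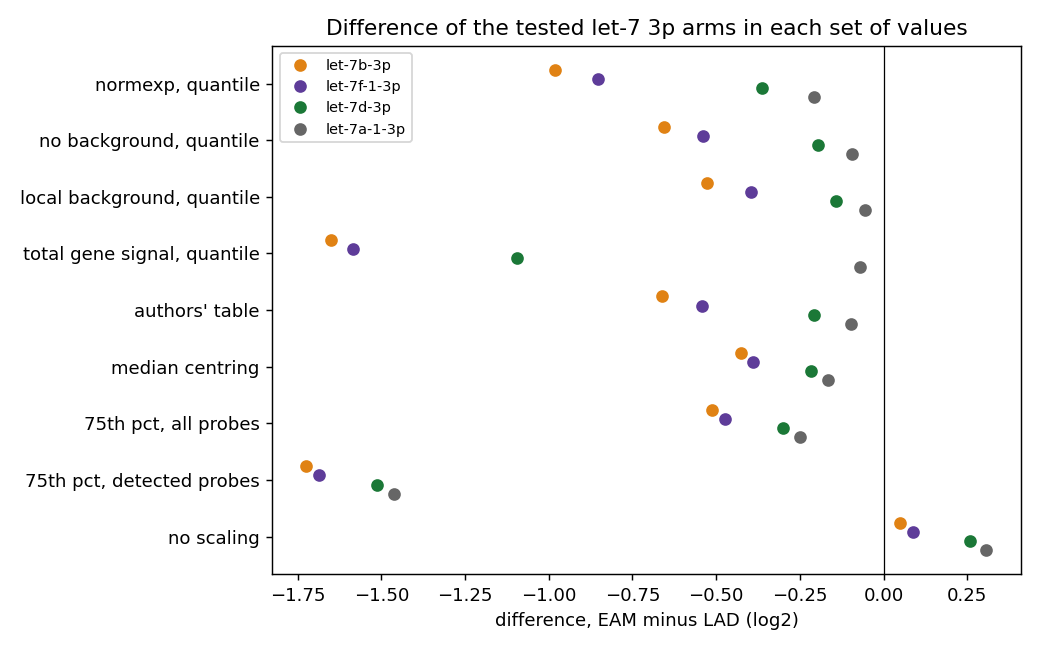
Log2 difference, EAM minus LAD (x axis), of the 4 tested passenger strands in each of 9 value sets (rows). All 4 are negative in the 8 scaled sets, and all 4 lie between 0.049 and 0.31 in the set without scaling.

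Each 3p arm is read by a ladder of probes that end at different positions, and the separate probes bear on how each passenger was measured. The longest probe is printed for the 4 tested arms, as the array design gives it. For let-7b-3p and let-7f-1-3p, capitals mark the 9 first bases that both ladders share, which pair with the shared 3′ end of the mature strands. For let-7d-3p, capitals mark the 3 bases by which the longest probe exceeds the shortest, and for let-7a-1-3p the last base of the longest probe.
let-7b-3p probe: GGGAAGGCAgtaggtt
let-7f-1-3p probe: GGGAAGGCAatagattgtat
let-7d-3p probe: agaaaggcagcaggtCGT
let-7a-1-3p probe: ggaaagacagtagattgtataG

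The 4 probes of let-7b-3p, 13 to 16 bases long, gave like values. Their unscaled signal averaged 25.6, 22.6, 25.2 and 24.7 units in EAM, by rising length, against 28.3, 25.6, 30.4 and 29.1 in LAD. The 4 probes of let-7f-1-3p, 17 to 20 bases long, averaged 22.0, 20.8, 18.8 and 20.8 units in EAM, against 24.8, 22.7, 22.8 and 23.5 in LAD. All 8 probes were thus slightly lower in EAM on average.

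The probes of let-7d-3p did not all go one way. Its longest probe, 18 bases, was above background at every spot of all 7 arrays. It read 35.3, 43.1, 24.1 and 34.3 units in EAM, against 25.03, 29.7 and 24.9 in LAD, so that EAM averaged higher (34.2 ± 7.8 and 26.5 ± 2.7, SD) with overlap. Its 2 shortest probes had no spot well above background, except 12.5% of the spots of the shortest one on EAM array 1. They averaged 1.8 and 4.5 units in EAM, against 4.9 and 7.1 in LAD. For let-7a-1-3p the longest probe, 22 bases, averaged 15.3 ± 2.4 units in EAM and 9.01 ± 4.68 in LAD (SD), and its 3 shorter probes stayed below 6 units on average in both groups. The value of let-7d-3p or let-7a-1-3p therefore depends on how its probes are combined.

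**Figure D4:**
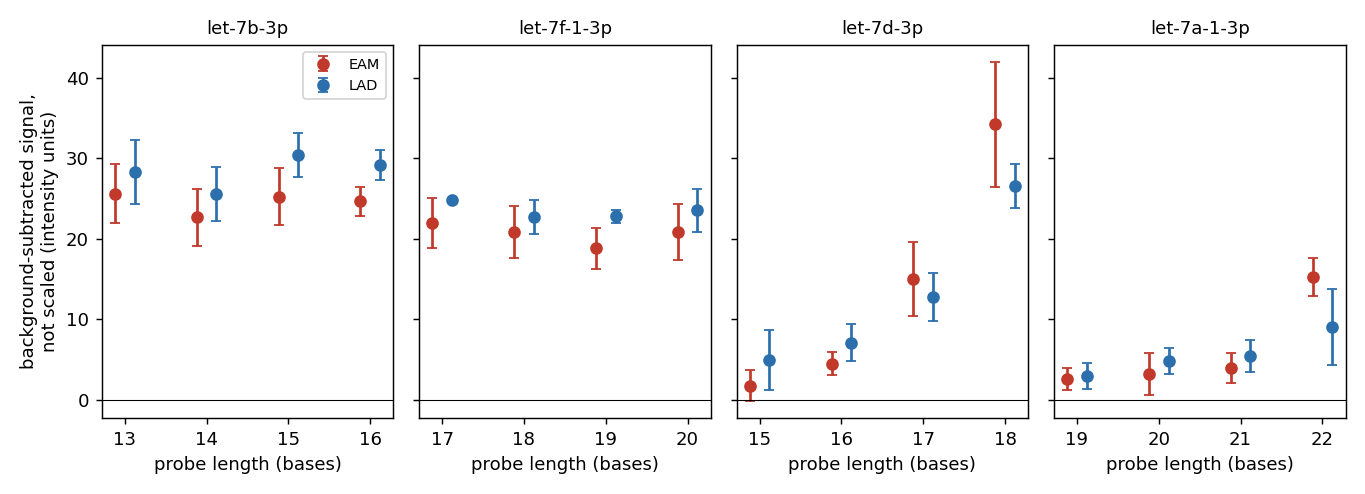
Mean and SD of unscaled background-subtracted signal (y axis, intensity units) for each probe of 4 passenger strands, by probe length (x axis), in EAM (n = 4) and LAD (n = 3). EAM lies slightly below LAD at every probe of let-7b-3p and let-7f-1-3p, and above it at the longest probe of let-7d-3p and let-7a-1-3p.

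The start GGGAAG of these probes is rare on the array. Besides let-7b-3p and let-7f-1-3p, only miR-298-5p has probes that begin with it, so that 3 names (0.159%) hold it; GGGAAGGCA starts the probes of these 2 passengers alone. The match was made at the first base of the probe, on the probe strand only. All 3 miRNAs were detected on all 7 arrays, and miR-298-5p had 17.02, 16.7, 16.2 and 15.3 units in EAM, against 16.6, 18.1 and 18.8 in LAD. Its signal, like that of the let-7b and let-7f-1 passengers, overlapped between the groups without scaling. Such overlap was common: of the 251 miRNAs detected on all 7 arrays, 147 were higher in EAM without overlap and 0 lower (log2 scale, no scaling). Nothing is read from this likeness.

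The difference between the arms of a hairpin does not depend on a shift that scaling applies equally to all signals of an array, although quantile normalization moves weak and strong signals by different amounts. For each array the log2 value of the 5p arm was subtracted from that of the 3p arm. The level of this arm difference mixes 2 probe sets and is not interpreted; what is compared is its change between arrays. let-7a-1 and let-7a-2 share let-7a-5p, and let-7f-1 and let-7f-2 share let-7f-5p, so the members of these pairs are not independent.

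For the let-7b hairpin the arm difference was -5.85, -5.63, -5.72 and -5.69 in EAM, against -4.18, -4.93 and -3.78 in LAD, after quantile normalization. All EAM arrays were below all LAD arrays, by -1.43 between the means. For let-7f-1 it was -7.61, -7.61, -7.59 and -7.70 in EAM, against -6.51, -6.91 and -6.30 in LAD. That is -1.05 between the means, again without overlap. For let-7d it was -6.08, -5.93, -6.20 and -6.13 in EAM, against -5.41, -5.92 and -5.25 in LAD, or -0.56 between the means. EAM array 2 and LAD array 2 nearly touched there.

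The remaining hairpins had arm differences between the means of -0.59 (let-7c-1), -0.54 (let-7e), -0.40 (let-7a-1), -0.31 (let-7a-2) and -0.28 (let-7f-2). let-7e and let-7a-2 overlapped between the groups. In let-7c-1, let-7e and let-7a-2 the 3p arm was detected on no array, so the guide was the only arm with a detected signal. The median over the 8 hairpins was -0.55.

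Without scaling, every hairpin had all EAM arrays below all LAD arrays in arm difference. So did 275 of 754 other hairpins with both arms on the array, and 57 of 93 whose 5p arm was detected on all 7 arrays. Both of these sets include the hairpins of let-7g, let-7i and miR-98. Among 17 other hairpins with both arms detected on all 7 arrays, 13 did. The change was -2.73 for let-7b, -2.75 for let-7f-1 and -2.25 for let-7d, and over the 8 it ran between -2.75 and -0.70 (let-7e), with a median of -2.42. In the authors' deposited table it was -1.61 for let-7b, -1.16 for let-7f-1 and -0.78 for let-7d. The direction, a lower 3p relative to 5p signal in EAM, was thus common to these 3 value sets. It was also seen where the guide was the only arm with a detected signal. Without scaling, let-7a-2 changed by -2.42 and let-7c-1 by -2.32, though their 3p arms were detected on no array. Opposite arms also chose the set, so nothing is read from the shared direction. With total gene signal, in which undetected arms sit at a floor, let-7f-2 was at 0.20, and let-7f-2, let-7a-1, let-7a-2 and let-7e overlapped. For let-7b the direction held, while its size ranged between -2.74 and -0.96 over the 8 scaled sets.

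**Figure D5:**
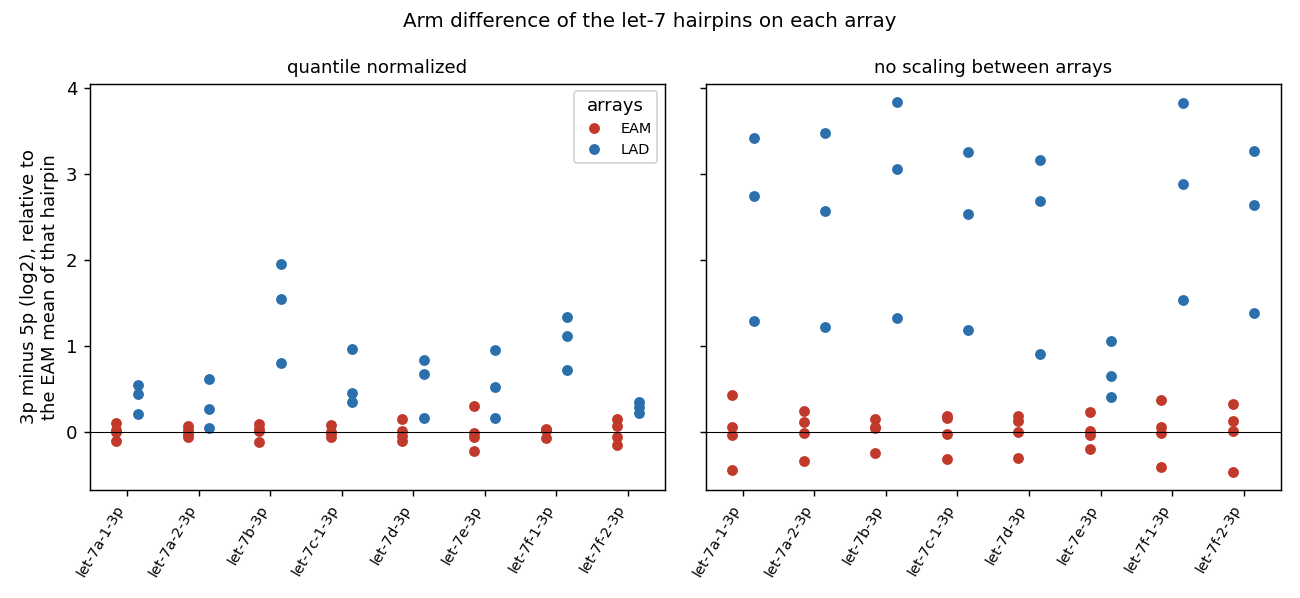
Arm difference (3p minus 5p, log2) of the 8 let-7 hairpins on each array, drawn relative to the EAM mean of that hairpin (y axis), after quantile normalization on the left and without scaling on the right. The LAD arrays stand above the EAM arrays, except that let-7a-2 and let-7e overlap on the left, and farther above without scaling, where let-7b differs by -2.73 between the means.

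The median arm difference of other hairpins had the same sign, with exceptions among them. Among 17 hairpins outside the let-7 group with both arms detected on all 7 arrays, the median change was -1.03 after quantile normalization, beside -1.05 over the 3 let-7 hairpins of that kind. None of the 17 had all EAM arrays above all LAD arrays, and 9 had all below; 1 had all above without scaling and 2 in the authors' deposited table. Without scaling the medians were -1.16 over the 17 and -2.73 over the 3 let-7 hairpins. Outside the members, 93 hairpins had a 5p arm detected on all 7 arrays, let-7g, let-7i and miR-98 among them. Their median was -0.38 after quantile normalization and -1.13 without scaling, beside -0.56 and -2.43 over 7 let-7 hairpins of the members. After quantile normalization 36 of the 93 had all EAM arrays below all LAD arrays and 16 all above, with an upper quartile of 0.45. After quantile normalization the let-7 medians thus lay near those of the 17 and the 93. Over all 754 other hairpins on the array, detected or not, the median was -0.11, beside -0.55 over the 8 let-7 hairpins. The 17 were of mixed kinds. Unscaled EAM to LAD ratios of the 5p and 3p arms were 4.66 and 5.40 for miR-140, but 3.83 and 1.01 for miR-7080. The larger distance of the let-7 medians without scaling was not tested.

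Passengers of other hairpins that are well known in T cells were set beside the let-7 passengers. Of 42 such strands on the array, 12 were tested, 4 of which were detected on all 7 arrays. Their median log2 difference was 0.05 over the 42 and 0.27 over the 12, against -0.16 and -0.61 for the 8 let-7 passengers and the 4 tested. Of the 42, 5 had all EAM arrays below all LAD arrays and 11 all above, beside 20.4% and 17.5% of all miRNAs of the array. Without scaling the medians were 0.56 over the 42 and 0.34 over the 8 let-7 passengers. The group contrast chose the let-7 set, and the 42 were listed with earlier results of these data known. Nothing is therefore read from the comparison.

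The other let-7 hairpins added little passenger signal. let-7g-3p and let-7i-3p were detected on no array and miR-98-3p, which has the seed UAUACAA, on 1 EAM array. Their guides were bright: let-7g-5p was higher in EAM by 0.48 ± 0.13 (log2, SE, limma adjusted p = 0.0204) and let-7i-5p differed by 0.11 ± 0.12 (limma adjusted p = 0.418). Of 13 miRNAs that share a primary transcript with a let-7 hairpin, 3 were tested, miR-98-5p, miR-125a-5p and miR-125b-5p. miR-98-5p, which carries the let-7 guide seed, was called higher in EAM (log2 difference 1.40 ± 0.36, SE, limma adjusted p = 0.0187), and 0 were called lower. The same fit called 36.2% of the miRNAs tested higher in EAM and 23.6% lower, and that split changed with scaling. Nothing is therefore read from these calls.

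Profiles over the 7 arrays were compared by the root mean square (RMS) difference of log2 values, each profile centred on its own mean. The nearest tested miRNAs to let-7b-3p were miR-7241-5p (RMS 0.066) and miR-7211-5p (0.072). Those nearest to let-7f-1-3p were miR-5620-3p (0.033) and miR-291b-5p (0.040). miR-5620-3p also had a nearly even unscaled signal, of 21.9, 22.8, 18.4 and 18.5 units in EAM, against 23.3, 22.3 and 22.9 in LAD. The nearest to let-7d-3p were miR-328-3p (0.053) and miR-129-1-3p (0.082), and those nearest to let-7a-1-3p were miR-3963 (0.074) and miR-125a-5p (0.092). The RMS of a profile around its own mean was 0.544 for let-7b-3p, 0.456 for let-7f-1-3p, 0.220 for let-7d-3p and 0.119 for let-7a-1-3p. The profile of let-7a-1-3p was thus nearly flat, and its small distances say little about likeness.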

How the data were processed

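Per the file headers, the authors scanned 1-colour (Cy3) Agilent miRNA arrays, all 7 on 1 slide, and read them with Feature Extraction 10.7.3.1. The deposited intensity values are mean spot signals and background-subtracted signals, with no scaling between arrays, and the deposited detection, saturation and outlier marks are used as given. The authors' deposited table holds normalized log2 values, and the submitters' processing notes name RMA without its steps. Its values correlated with quantile-normalized values without background correction (r = 0.999 over all miRNAs and arrays, as a description).

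Of 58594 spots, 56430 were not controls and gave 4415 probes. Main values were normexp background correction (limma 3.58.1, R 4.3.3), quantile normalization, log2, the median over a probe's spots without those marked as outliers, and a median polish that combined the probes for each miRNA. Unscaled signals are medians over probes of the background-subtracted signal. lmFit and eBayes were fitted on 423 miRNAs with Benjamini-Hochberg adjustment at 0.05, after the fit was tested on simulated data. Precision is limited by the number of arrays. The members and lists were chosen with earlier results of these data known. Named were all members, their 5p arms, other let-7 strands, miRNAs of the same transcripts, marker miRNAs and, for each tested member, the 2 tested miRNAs of nearest profile; miR-298-5p was added after its probe sequence was seen. Alternatives changed background, scaling, summary, source of values, filter, variance model, replicate block and arrays. Markers outside the lymphocyte, epithelial, stroma, heart and liver lists were myeloid (1 of 2 detected on all 7 arrays), red cell (1 of 3) and endothelial (0 of 2) miRNAs.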

Additional observations from a re-analysis of the deposited data

Results flagged for a closer look

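The arm difference of the let-7f-1 hairpin had 1 array apart from the others in EAM. Its values were -7.61, -7.61, -7.59 and -7.70, and the gap between EAM array 4 and its nearest neighbour was 0.838 of the whole range. All 4 values lie within a narrow range beside the LAD arrays (-6.51, -6.91 and -6.30). Among 36 sets of values checked in this way 1 was so marked, and chance alone marks about 1 in 20.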

How the results depend on the processing

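The median log2 difference of the 8 passengers, -0.16 in the main values, was -0.070 without background correction, -0.045 with local background and an offset of 50, -0.22 with the 75th percentile of all probes, -1.43 with that of detected probes, -0.035 with total gene signal, -0.074 in the authors' table and 0.34 without scaling. Without scaling, let-7a-1-3p (0.31), let-7b-3p (0.049), let-7d-3p (0.26) and let-7f-1-3p (0.087) reversed on the log2 scale after normexp. The ratios of their unscaled background-subtracted signal were 0.70, 0.85, 0.97 and 0.89. The direction without scaling thus depended on the measure. The 2 measures differ in background step, probe combination and averaging, and which of these matters was not tested. The median of the 6 guides, 0.32, was 2.18, 0.97, 2.26, 2.74 and 0.59 with the 75th percentile of all probes, that of detected probes, median centring, no scaling and the authors' table. The median arm difference, -0.55, was -0.34 without background correction, -0.29 with local background, -2.42 and -2.43 with the percentiles of all and of detected probes, -2.42 with median centring and -2.42 without scaling. Over the passengers detected on all 7 arrays, a choice made after seeing the data, the medians were -0.85 and -1.05, and 0.087 and -2.73 without scaling. The 6 passengers below LAD without overlap became 8 with the percentile of detected probes, arms detected on no array among them. The count was 3 with median centring, 3 with total gene signal and 0 without scaling, which put 2 above. Of all 1881 miRNAs on the array, 2 were below and 1056 above without scaling. The 2 called lower became 4 with the percentile of detected probes, 4 with all miRNAs tested, 4 with trend, robust and array weights, and 0 without scaling.

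Leaving out 1 array at a time gave medians of -0.19 to -0.15 for the passengers, 0.24 to 0.40 for the guides and -0.72 to -0.37 for the arm difference, 6 to 7 passengers without overlap, 2 to 3 called lower and 0 called higher. With the replicate number as a block, 0 passengers were called, and limma called 0 of all 423 miRNAs against 253 (180 had an unadjusted p under 0.05, 2 of the 4 tested passengers among them). A block on 7 arrays leaves little freedom to estimate the spread. Deviations of same-numbered arrays correlated at 0.20, -0.16 and -0.19. With so few arrays this cannot show whether same-numbered arrays belong together. Over all miRNAs, the calls split into 153 higher and 100 lower, but 38 and 230 with the percentile of detected probes, 247 and 77 with that of all probes, 265 and 54 with median centring, and 299 and 2 without scaling. Leaving out 1 array gave 75 to 344 calls, the 2 ends without EAM array 4 and without LAD array 2. Tests with all miRNAs called 445, and those detected on all 7 arrays 135.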

Other observations

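The probes of miRNAs that kept an even or lower unscaled signal in EAM were rich in guanine, a pattern looked for after the signals were seen. Over the 66 miRNAs detected on all 7 arrays with an EAM to LAD ratio under 1, the median guanine share of the probe letters was 50.2%. Over the 43 with a ratio of 1 to under 2 it was 37.8%, over those with a ratio of 2 or more it was 15.4%, and over all 1881 names it was 23.7%. The share was 53.6% for let-7b-3p, 38.0% for let-7f-1-3p and 39.4% for let-7d-3p. The ratio of let-7a-1-3p, not detected on all 7 arrays, was also below 1, but its longest probe averaged higher in EAM. That probe read 15.3 units on average in EAM and 9.01 in LAD. The guanine share was 30.5% for let-7a-1-3p, 36.0% for let-7c-1-3p and 27.1% for let-7f-2-3p. It was 46.9% for let-7e-3p and 41.9% for let-7a-2-3p, which were detected on no array. Whether probe composition bears on the signal of the passengers was not tested.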
